A study of Arabidopsis thaliana with 16 samples.

Results

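Whether seedlings that lack the receptor-like kinase FERONIA answer arabidopside A differently from the wild type was examined in 3′-end RNA sequencing (QuantSeq) counts of *Arabidopsis thaliana*. The quantity tested for each gene is the difference of responses, the log2 response to arabidopside A in *fer* minus the log2 response in WT. It is negative where a gene was raised less or lowered more in *fer* and positive where it was lowered less or raised more. It needs both genotypes with and without the lipid, so all 16 of the 16 deposited libraries were used, 4 per group. WT was the accession Columbia-0, and *fer* was *fer-4*, a T-DNA insertion in *FER* in the same background, so that the mutant is represented by 1 allele. All seedlings were 10 days old, grown on plates of half-strength Murashige and Skoog medium and kept in liquid medium for 2 h before the treatment. The treated groups received arabidopside A at 12.5 µM for 2 h, and the remaining seedlings are labelled control. The material was whole seedlings, in which fewer cells of a type and less RNA per cell cannot be told apart.

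Arabidopsides are galactolipids of the chloroplast membrane whose acyl chains have been converted into oxophytodienoic acid (OPDA) or its shorter homologue, the precursors of the hormone jasmonate. Jasmonate conjugated to isoleucine brings the F-box protein COI1 together with the JAZ repressors, which are then degraded, and the bHLH factor MYC2 and its relatives are released to activate wound and defence genes. Among the genes activated are those of jasmonate biosynthesis, of its turnover and of the JAZ proteins themselves. FER, the product of *FERONIA*, is a plasma membrane kinase that senses RALF peptides and cell wall state.

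Total counts per library ranged from 2843653 to 6860427, apart from *fer* arabidopside A replicate 2 with 26358335. *FER* (AT3G51550) had 546, 444, 793 and 541 counts in WT control and 715, 362, 662 and 356 in treated WT. In *fer* it had 7, 3, 3 and 10 counts without and 0, 11, 7 and 14 with arabidopside A. Its difference of responses was -0.81 ± 0.70 (standard error; adjusted p = 1 from edgeR's quasi-likelihood test with Benjamini-Hochberg adjustment over the genes tested, as throughout). On the first principal component of log2 CPM (counts scaled to the library size; 61.3% of the variance) the WT libraries lay between -68.6 and -44.4. The *fer* libraries of replicates 1 and 2 lay between 12.8 and 45.1 and those of replicates 3 and 4 between 77.5 and 111, in both treatments. Fits of replicates 1 and 2 alone and of replicates 3 and 4 alone are therefore set beside the results that they change. Of the shoot markers, such as the Rubisco small subunit genes, and the root markers, 7 of 7 and 7 of 7 were detected in each library. The summed level of the shoot markers was 16928 to 20333 CPM in WT control and 15176 to 19053 in treated WT, against 5362 to 12220 and 5775 to 10598 in *fer*. None of the 14 markers passed the test for the difference of responses, and their part in the results below was not tested. Nothing in the labels says that the replicates came from separate cultures, so p-values measure the spread between these samples, which may be technical.

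Of the 18132 genes with enough counts to be tested, 20 (0.11%) had a negative difference of responses with an adjusted p under 0.05, and 0 (0%) had a positive one. At an unadjusted p under 0.05, 556 genes were negative and 333 positive. DESeq2 called 51 of the 13385 genes it tested, 50 negative and 1 positive. With the replicate number as a block within each genotype (the replicate block), 53 genes passed, 52 negative and 1 positive, and all 20 were among them. The deviations of same-numbered libraries correlated in *fer* and not in WT. The split of the *fer* libraries by replicate number can by itself give such a correlation, and whether they are pairs was not tested. With replicates 1 and 2 alone 12 of the 20 passed and with replicates 3 and 4 alone 9 did, and all 20 stayed negative in both. Both fits reuse libraries of the fit that chose the 20 genes, so the kept sign is a description. The median difference of responses over all genes tested was -0.03, and 54.1% of them were negative. Arabidopside A raised 333 genes (1.84%) and lowered 24 (0.132%) in WT. It raised 67 (0.37%) and lowered 2 (0.011%) in *fer*. With the replicate block, 584 genes changed in WT and 187 in *fer*. The count in *fer* depended on the libraries: it was 439 with replicates 1 and 2 alone and 0 with replicates 3 and 4 alone, 10 without *fer* control replicate 2 or 4 or *fer* arabidopside A replicate 2, and 179 without *fer* control replicate 3. The lowest count in WT was 210, without WT control replicate 3. Because the responses share their control libraries with the difference of responses, they are given as values beside it.

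Each of the 20 genes was raised by arabidopside A in WT, from 2.22-fold to 35.5-fold with a median of 5.92-fold. In *fer* their response ranged from 0.917-fold to 3.41-fold with a median of 1.48-fold, and 7 of the 20 passed the test there. All 20 were also higher in *fer* control than in WT control, by 1.44 to 6.09 on the log2 scale. This was so for 17.8% of the genes tested. The comparison uses control libraries of the test that chose the 20 genes and is a description. In 14 of the 20 the mean of *fer* control was at or above the mean of treated WT. In all 20 the mean of treated *fer* was above that of treated WT. These orders of means use the groups of the test that chose the genes and are a description. Their shares among all genes tested were not counted. Among the 20 were 4 JAZ genes, the ethylene response factor genes *ERF2* and *ORA59*, *MYC2*, and the biosynthesis genes *OPCL1* and *OPR3*.

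**Figure D1:**
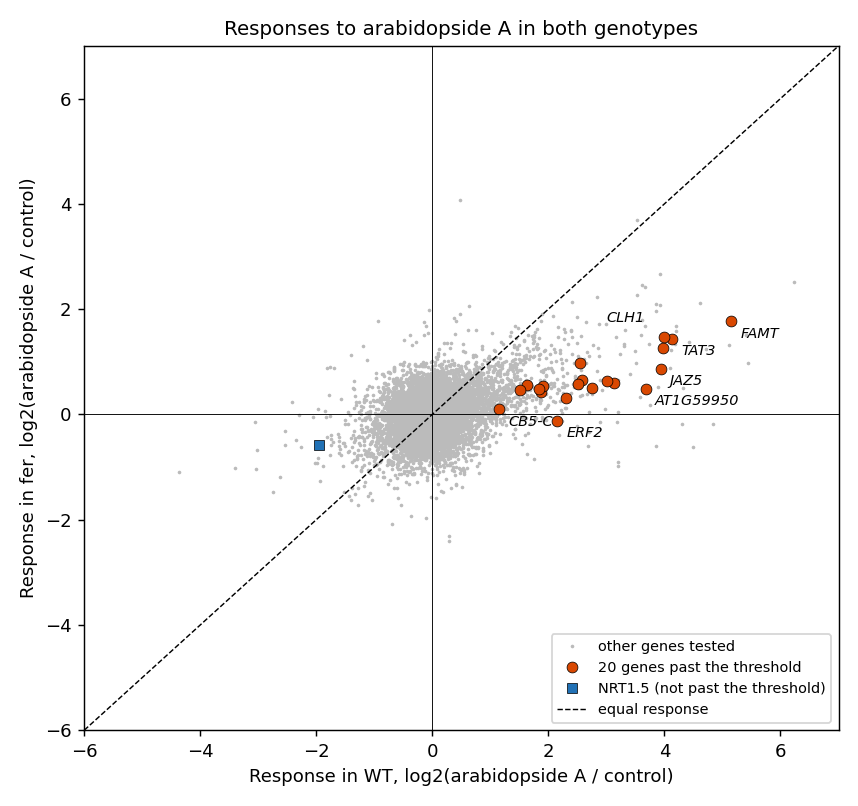
Log2 response to arabidopside A in WT (horizontal axis) and in *fer* (vertical axis), each the treated against the control libraries of the genotype (n = 4 per group), for the 18132 genes tested. The 20 genes past the threshold for the difference of responses (orange) lie between 1.15 and 5.15 in WT and between -0.13 and 1.77 in *fer*, all below the dashed line of equal responses, and *NRT1.5* (blue square), which did not pass, lies above it at -1.96 and -0.59.

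The smallest p-value was that of *JAZ5* (AT1G17380), 1 of the repressors that COI1 removes. Its level was 2.31, 1.97, 2.28 and 2.42 CPM in WT control, 33.5, 30.5, 36.2 and 39.1 in treated WT, 59.2, 51.5, 83.4 and 71.7 in *fer* control and 119, 143, 113 and 111 in treated *fer* (TMM-normalized CPM, in replicate order, as for all levels below). The 4 groups did not overlap, and they rose in that order, with every untreated *fer* library above every treated WT library. The response was 15.3-fold in WT and 1.83-fold in *fer* (adjusted p = 0.012 from edgeR), a difference of -3.07 ± 0.23 (adjusted p = 1.71e-06). It was -2.64 with replicates 1 and 2 alone and -3.46 with replicates 3 and 4 alone.

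*ERF2* (AT5G47220), a transcription factor that binds the GCC-box and activates transcription, had 18.5, 21.1, 17.3 and 17.7 CPM in WT control and 82.7, 91.7, 80.3 and 75.7 in treated WT. In *fer* it had 117, 154, 155 and 164 CPM without and 118, 135, 135 and 153 with arabidopside A. The WT groups were apart, whereas the *fer* groups overlapped and both lay above treated WT. The response was 4.44-fold in WT and 0.917-fold in *fer* (adjusted p = 0.86), a difference of -2.28 ± 0.18 (adjusted p = 1.71e-06).

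AT4G24350, annotated as a phosphorylase superfamily protein, had 17.1, 12.8, 15.8 and 25.5 CPM in WT control, 262, 266, 299 and 297 in treated WT, 164, 165, 156 and 147 in *fer* control and 420, 467, 381 and 240 in treated *fer*. Here *fer* control stood between the WT groups, and treated *fer* reached above treated WT in 3 of 4 libraries. The difference was -2.72 ± 0.27 (adjusted p = 6.01e-05), from 15.7-fold in WT and 2.39-fold in *fer* (adjusted p = 0.0075). A gene on the opposite strand, AT4G07255, overlaps it by 330 bp, and reads of such partners cannot be told apart if strand was not used in counting.

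AT3G23550, annotated as a MATE efflux transporter, had 14.6, 8.11, 8.47 and 15.1 CPM in WT control, 101, 85.2, 102 and 116 in treated WT, 115, 153, 170 and 169 in *fer* control and 190, 247, 250 and 234 in treated *fer*. The lowest *fer* control library lay just under the highest treated WT library, and treated *fer* was above all other libraries. The response was 8.75-fold in WT and 1.52-fold in *fer* (adjusted p = 0.245), a difference of -2.53 ± 0.27 (adjusted p = 9.96e-05). It shares 69 bp with AT3G23540 on the opposite strand.

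*AACT1* (AT5G61160), annotated as anthocyanin 5-aromatic acyltransferase 1, had 33.7, 32.4, 21.2 and 34.8 CPM in WT control, 268, 177, 262 and 274 in treated WT, 286, 289, 403 and 429 in *fer* control and 418, 623, 660 and 478 in treated *fer*. Every *fer* library, treated or not, lay above every WT library, and the *fer* groups overlapped. The response was 8.06-fold in WT and 1.55-fold in *fer* (adjusted p = 0.269), a difference of -2.38 ± 0.28 (adjusted p = 0.00045). *JAZ6* (AT1G72450) had 12, 14.3, 8.79 and 13.6 CPM in WT control, 74.2, 67.1, 85.4 and 62.6 in treated WT, 82.2, 74.7, 80.3 and 60.4 in *fer* control and 129, 146, 100 and 91.9 in treated *fer*. Untreated *fer* and treated WT overlapped in this gene. Its response was 5.98-fold in WT and 1.57-fold in *fer* (adjusted p = 0.131), a difference of -1.93 ± 0.25 (adjusted p = 0.000925).

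**Figure D2:**
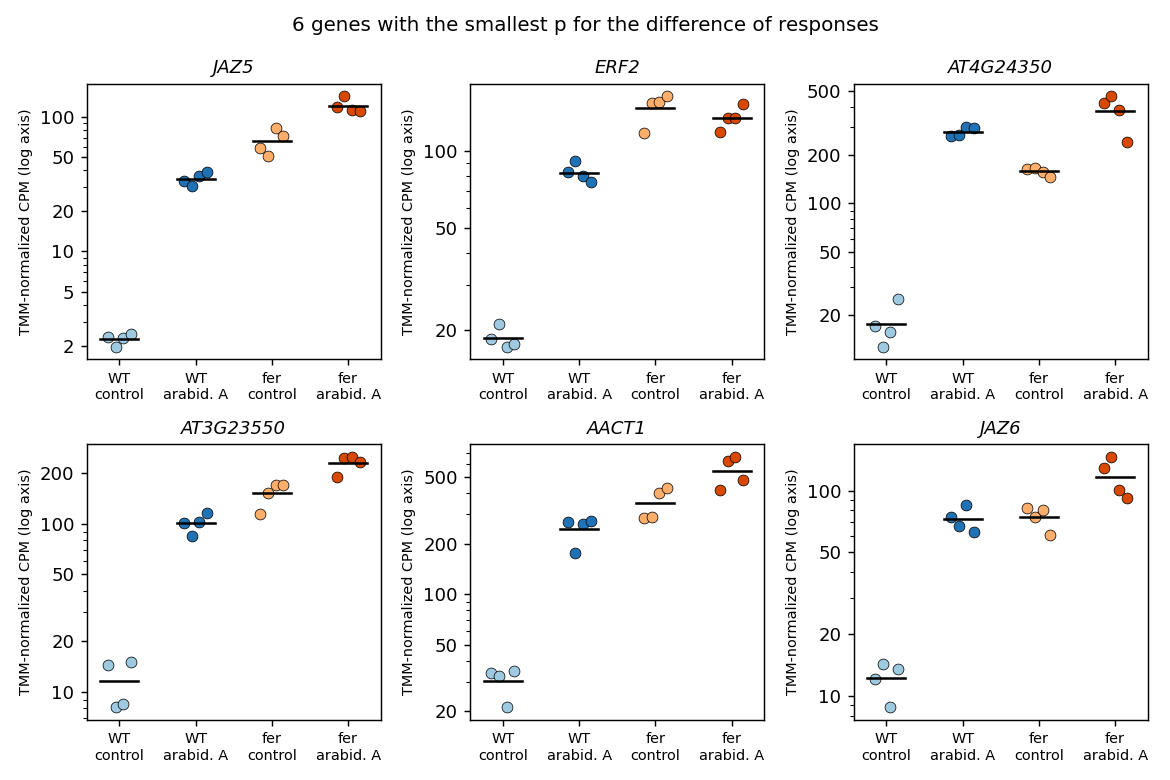
TMM-normalized CPM (log axis) of the 6 genes with the smallest p-value for the difference of responses, with 1 point per library, 4 libraries per group and a bar at the group mean. WT control is lowest in each panel, and the 4 *fer* control libraries sit above all treated WT libraries for *JAZ5*, *ERF2* and *AACT1*.

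The 250 bases before the annotated start of these genes are shown because the jasmonate factors read short motifs in such stretches: MYC2 binds the G-box (CACGTG) and its variant AACGTG, and ERF proteins bind the GCC-box (GCCGCC). These motifs and the W-box (TTGACC), which WRKY factors bind, were searched on both strands and are set in capitals. The sequences are from RefSeq's TAIR10.1 assembly and are written 5′ to 3′ on the strand of the gene. *JAZ5* (chr1:5957512-5957761, minus strand) holds 1 AACGTG. *ERF2* (chr5:19172957-19173206, minus strand) holds a TTGACC and, closer to the start, a CACGTG. AT3G23550 (chr3:8450800-8451049, minus strand) holds none of the 4 motifs, and *AACT1* (chr5:24608355-24608604, plus strand) holds 2 GCCGCC near the start. The window of AT4G24350 reaches into an annotated neighbour and is not shown.
JAZ5: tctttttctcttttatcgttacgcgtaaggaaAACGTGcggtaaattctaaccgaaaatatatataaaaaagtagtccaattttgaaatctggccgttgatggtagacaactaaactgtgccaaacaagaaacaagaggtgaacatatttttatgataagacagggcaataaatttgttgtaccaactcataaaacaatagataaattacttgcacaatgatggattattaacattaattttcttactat
ERF2: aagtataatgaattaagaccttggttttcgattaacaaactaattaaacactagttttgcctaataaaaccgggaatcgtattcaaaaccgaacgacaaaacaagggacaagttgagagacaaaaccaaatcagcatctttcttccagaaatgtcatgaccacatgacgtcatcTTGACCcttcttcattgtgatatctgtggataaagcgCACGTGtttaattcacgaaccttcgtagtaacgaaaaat
AT3G23550: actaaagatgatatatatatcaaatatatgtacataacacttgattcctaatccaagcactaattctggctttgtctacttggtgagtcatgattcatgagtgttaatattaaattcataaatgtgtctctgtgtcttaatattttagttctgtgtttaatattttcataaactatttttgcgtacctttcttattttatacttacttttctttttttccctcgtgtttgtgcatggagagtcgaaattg
AACT1: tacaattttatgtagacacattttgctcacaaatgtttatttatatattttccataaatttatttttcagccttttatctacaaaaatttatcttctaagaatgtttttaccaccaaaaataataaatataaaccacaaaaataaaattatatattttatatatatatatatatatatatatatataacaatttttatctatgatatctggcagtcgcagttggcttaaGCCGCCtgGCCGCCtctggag
Among the 20 genes, CACGTG occurred in 4 windows (*ERF2*, *ORA59*, *JAZ3*, AT1G59950) and in 6.49% of the 27443 windows of protein-coding genes. AACGTG occurred in 7 (*JAZ5*, *JAZ6*, *FAMT*, *MYC2*, *JAZ3*, *PGIP2*, *CB5-C*), against 7.54% of all. At least 1 of the motifs CACGTG and AACGTG was present in 10 of the 20, against 13.3% of all windows. GCCGCC occurred in 2 (*AACT1*, *ORA59*; 1.87% of all) and TTGACC in 1 (*ERF2*; 12.2% of all). The matches are a description of the letters, and binding was not measured.

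The JAZ repressors formed the group with most members past the threshold. Of the 13 members 12 could be tested, and *JAZ4*, with 81 counts over all libraries, could not. All 12 had a negative difference of responses, with a median of -1.99 against -0.03 over all genes, and 4 passed (*JAZ5*, *JAZ6*, *JAZ1*, *JAZ3*). The median was -1.425 with replicates 1 and 2 alone, where 4 members passed, and -2.61 with replicates 3 and 4 alone, where 2 did. Arabidopside A raised 11 of the 12 in WT and 2 in *fer*, *JAZ5* and *JAZ10*, and 11 were higher in *fer* control than in WT control. Of all genes tested, 0.11% passed, 54.1% were negative, 1.84% were raised in WT and 0.37% in *fer*. In *fer* control 17.8% were higher than in WT control. These shares apply to the counts of each group below, and the groups were chosen with earlier results of these data known. With the replicate block, *JAZ10* also passed (adjusted p = 0.0408 from edgeR).

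*JAZ1* (AT1G19180), the most abundant of them, had 282, 248, 175 and 336 CPM in WT control, 1276, 1457, 1164 and 1230 in treated WT, 1190, 2008, 1564 and 1537 in *fer* control and 1731, 1753, 1998 and 2307 in treated *fer*. Treated *fer* was above all treated WT libraries, whereas the *fer* groups overlapped. The response was 4.92-fold in WT and 1.24-fold in *fer* (adjusted p = 0.716), a difference of -1.99 ± 0.25 (adjusted p = 0.000925). With replicates 3 and 4 alone the difference was -1.76 and did not pass (adjusted p = 0.228). *JAZ3* (AT3G17860) had 7.86, 6.39, 6.51 and 7.99 CPM in WT control, 26.5, 26.4, 22.7 and 27.8 in treated WT, 23.3, 26.1, 33.4 and 20.7 in *fer* control and 39.6, 33.7, 30.1 and 41.7 in treated *fer*. Untreated *fer* lay at the level of treated WT. The difference was -1.36 ± 0.23 (adjusted p = 0.0192), and *JAZ3* passed in 9 of the 16 fits that left out 1 library. It did not pass with replicates 1 and 2 alone (-1.31, adjusted p = 0.184) or with replicates 3 and 4 alone (-1.40, adjusted p = 0.554).

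Among the JAZ genes that did not pass, *TIFY7* (*JAZ9*, AT1G70700) went from 6.62 to 104 CPM in WT and from 52.5 to 151 in *fer* (group means), a difference of -2.47 ± 0.47 (adjusted p = 0.0647). *JAZ10* (AT5G13220), whose splice forms resist degradation, went from 4.74 to 60.3 CPM in WT and from 31.0 to 99.9 in *fer*, a difference of -2.0 ± 0.40 (adjusted p = 0.0777). The members nearest to 0 were *JAZ11* (-0.33, adjusted p = 1) and *JAZ12* (-0.56, adjusted p = 0.66). AT3G22275 had the most negative estimate of the group, -3.80 (adjusted p = 0.858), at a mean of 0.0929 CPM in WT control and 4.15 in treated WT, a depth at which its response could not be measured well.

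**Figure D3:**
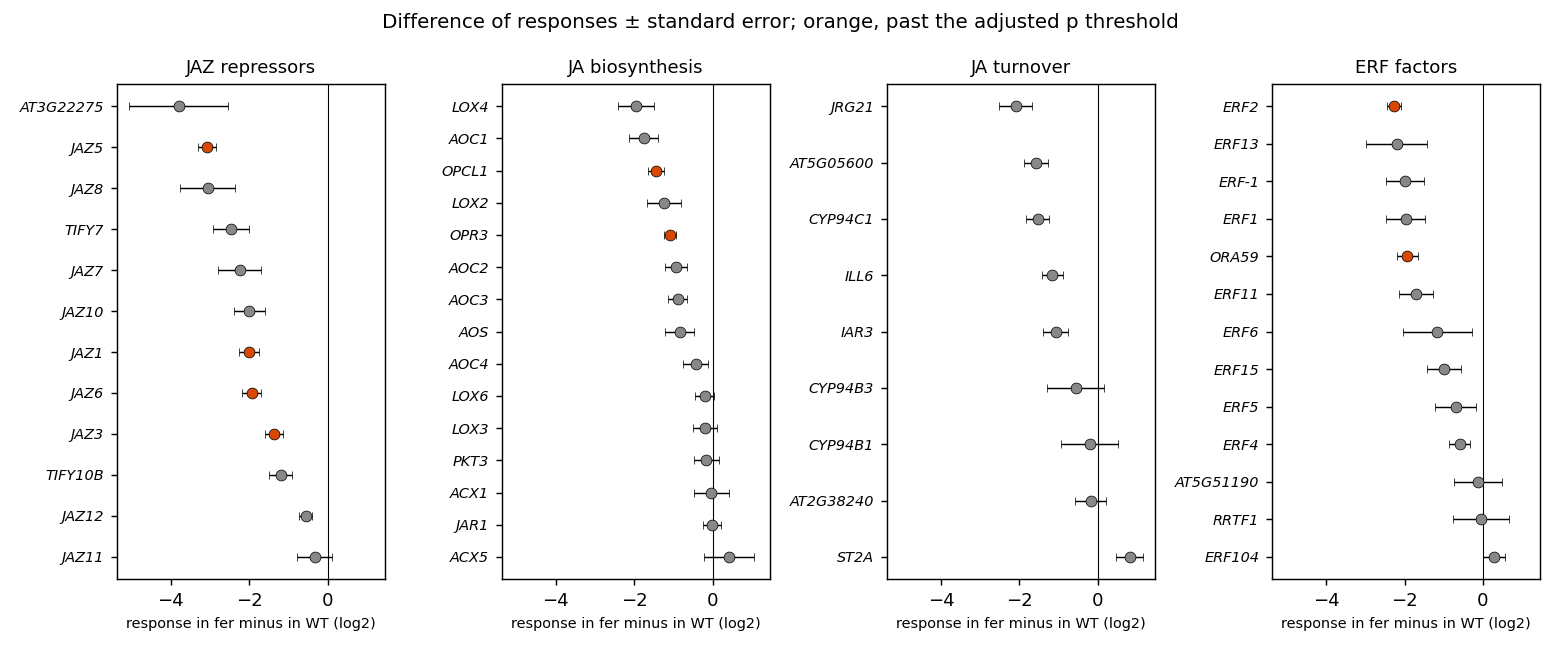
Difference of responses (log2 response in *fer* minus that in WT) with its standard error for the tested members of 4 groups, the JAZ repressors, jasmonate (JA) biosynthesis, JA turnover and ethylene response factors (ERF). All 12 JAZ genes lie below 0, and the 8 orange points are the genes past the adjusted p threshold in these groups.

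Jasmonate is made from linolenic acid by lipoxygenases (LOX), allene oxide synthase (AOS) and allene oxide cyclases (AOC) in the plastid, and OPDA is then reduced by OPR3 and activated by OPCL1 for β-oxidation in the peroxisome. Of 15 tested members of this route, 14 had a negative difference of responses, and the 2 that passed act after OPDA. The median was -0.84, or -0.67 with replicates 1 and 2 alone and -0.75 with replicates 3 and 4 alone. *DAD1*, with 1 count in all, could not be tested. Arabidopside A raised 8 of the 15 in WT and 1, *OPR3*, in *fer*, and 11 were higher in *fer* control than in WT control. With the replicate block, 5 passed, *AOC1* (adjusted p = 0.00963), *AOS* (0.0325) and *AOC2* (0.0342) being added.

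*OPR3* (AT2G06050) had 44.8, 47.7, 41.2 and 47.6 CPM in WT control, 135, 129, 146 and 154 in treated WT, 219, 191, 255 and 181 in *fer* control and 301, 324, 309 and 303 in treated *fer*. The 4 groups did not overlap and rose in that order. The response was 3.11-fold in WT and 1.46-fold in *fer* (adjusted p = 0.0389), a difference of -1.09 ± 0.16 (adjusted p = 0.00377). It did not pass with replicates 1 and 2 alone (-0.89, adjusted p = 0.116) or with replicates 3 and 4 alone (-1.27, adjusted p = 0.214). *OPCL1* (AT1G20510) had 10.4, 11.3, 11.4 and 16.2 CPM in WT control, 38.7, 42.9, 49.0 and 50.8 in treated WT, 66.9, 64.2, 69.4 and 70.8 in *fer* control and 91.8, 110, 84.7 and 76.0 in treated *fer*. Its groups were ordered in the same way without overlap. The response in *fer* was 1.34-fold (adjusted p = 0.361) against 3.66-fold in WT, a difference of -1.45 ± 0.21 (adjusted p = 0.00377). In the fits of replicates 1 and 2 alone and of replicates 3 and 4 alone it was -1.27 and -1.66 and missed the threshold (adjusted p = 0.0569 and 0.0553). *AOC1* (AT3G25760) had a difference of -1.76 ± 0.37 (adjusted p = 0.119) and *LOX4* (AT1G72520) of -1.95 ± 0.46 (adjusted p = 0.278).

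None of the 9 tested genes of jasmonate turnover passed, although 8 of them had a negative difference (median -1.08, or -0.57 with replicates 1 and 2 alone and -1.31 with replicates 3 and 4 alone), and 6 were raised in WT and 3 in *fer*. *CYP94C1* (AT2G27690), a cytochrome P450 that oxidizes the isoleucine conjugate, went from 18.9 ± 4.86 (SD, n = 4) to 78.1 ± 7.89 CPM in WT and from 57.9 ± 9.49 to 82.1 ± 24.9 in *fer*. Its difference of -1.54 ± 0.30 missed the threshold (adjusted p = 0.0582) and passed with the replicate block (adjusted p = 0.0168). AT5G05600 had -1.57 ± 0.31 (adjusted p = 0.0647) and *JRG21* (AT3G55970), a jasmonate oxidase, -2.10 ± 0.42 (adjusted p = 0.0806). The exception in sign was *ST2A* (AT5G07010), a sulfotransferase of hydroxylated jasmonate, with 788 CPM in WT control, 1140 in treated WT, 353 in *fer* control and 898 in treated *fer* (group means) and a difference of 0.81 ± 0.34 (adjusted p = 1). *AT3G11180* and *JMT* had too few counts to be tested.

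In the perception and bHLH group, 1 of 9 tested members passed, and the median difference was -0.08. The member was *MYC2* (AT1G32640), with 37.4, 32.4, 29.1 and 37.5 CPM in WT control, 126, 137, 128 and 120 in treated WT, 128, 124, 160 and 98.7 in *fer* control and 210, 199, 145 and 191 in treated *fer*. Untreated *fer* overlapped treated WT, and treated *fer* lay above treated WT. The response was 3.75-fold in WT and 1.46-fold in *fer* (adjusted p = 0.149), a difference of -1.36 ± 0.21 (adjusted p = 0.00537), which did not pass with replicates 3 and 4 alone (-1.53, adjusted p = 0.269). *MYC2* overlaps AT1G32630 on the opposite strand by 3241 bp. *AIB* (*JAM1*, AT2G46510), a bHLH repressor of jasmonate responses, had -0.52 ± 0.27 (adjusted p = 1) and the receptor gene *COI1* -0.10 ± 0.21 (adjusted p = 1). *NIG1* had 7 counts in all and was not tested.

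Of 13 tested ethylene response factor genes, 2 passed and 12 had a negative difference, against 0.11% and 54.1% of all genes tested. The median was -1.16, or -0.84 with replicates 1 and 2 alone (3 passed) and -1.43 with replicates 3 and 4 alone (1 passed). Arabidopside A raised 7 in WT and 0 in *fer*, against 1.84% and 0.37% of all genes tested. All 13 were higher in *fer* control than in WT control, against 17.8% of all genes tested. Beside *ERF2*, the other gene that passed was *ORA59* (AT1G06160), which joins jasmonate and ethylene signals at defensin genes. It had 34.2, 48.7, 31.1 and 60.2 CPM in WT control, 253, 249, 259 and 227 in treated WT, 181, 209, 140 and 154 in *fer* control and 249, 296, 295 and 180 in treated *fer*. Treated WT stood above all *fer* control libraries and overlapped treated *fer*. The response was 5.68-fold in WT and 1.49-fold in *fer* (adjusted p = 0.356), a difference of -1.93 ± 0.28 (adjusted p = 0.00377), or -2.10 with replicates 1 and 2 alone and -1.72 (adjusted p = 0.554) with replicates 3 and 4 alone. *ERF1* (AT3G23240; -1.97 ± 0.49, adjusted p = 0.286) and *ERF11* (AT1G28370; -1.71 ± 0.43, adjusted p = 0.338) did not pass. *ORA47* had 80 counts in all and was not tested.

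The 7 tested wound and jasmonate output genes had a median of -2.28, with 2 past the threshold. The median was -1.34 with replicates 1 and 2 alone and -3.05 with replicates 3 and 4 alone. The 2 genes were *TAT3* (AT2G24850), a tyrosine aminotransferase, and *CLH1* (AT1G19670), a chlorophyllase that takes the phytol chain off chlorophyll. *TAT3* had 2.77, 1.23, 1.47 and 1.3 CPM in WT control, 41.2, 18.9, 25.4 and 32.6 in treated WT, 92.6, 98.4, 159 and 110 in *fer* control and 214, 366, 396 and 268 in treated *fer*. The groups did not overlap and rose in that order. The response was 17.6-fold in WT and 2.71-fold in *fer* (adjusted p = 0.0191), a difference of -2.70 ± 0.43 (adjusted p = 0.0125). *TAT3* did not pass with replicates 1 and 2 alone (-2.29, adjusted p = 0.834), without WT control replicate 2 or 3, or with limma-voom (adjusted p = 0.435).

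*CLH1* had 14.1, 16.2, 8.47 and 15.4 CPM in WT control, 191, 213, 234 and 219 in treated WT, 243, 175, 149 and 125 in *fer* control and 692, 619, 345 and 274 in treated *fer*. Untreated *fer* overlapped treated WT, and in both *fer* groups replicates 1 and 2 were higher than replicates 3 and 4. The response was 15.9-fold in WT and 2.79-fold in *fer* (adjusted p = 0.0314), a difference of -2.51 ± 0.40 (adjusted p = 0.0178), and it passed in all 28 alternatives. *VSP2* (AT5G24770), a vegetative storage protein gene, went from 9.98 ± 3.75 to 52.7 ± 4.68 CPM in WT and from 238 ± 98.6 to 358 ± 160 in *fer* (SD, n = 4), a difference of -1.84 ± 0.49 (adjusted p = 0.492) that passed with the replicate block (adjusted p = 0.00355).

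Outside these groups 9 genes passed, of which AT4G24350, AT3G23550 and *AACT1* are described above. *FAMT* (AT3G44860), annotated as a farnesoic acid carboxyl-O-methyltransferase, had the most negative difference of the 20. It had 3.23, 0.983, 1.79 and 3.16 CPM in WT control, 73.5, 49.9, 101 and 106 in treated WT, 132, 138, 127 and 71.7 in *fer* control and 384, 489, 473 and 252 in treated *fer*. Untreated *fer* overlapped treated WT, and treated *fer* was above all other libraries. The response was 35.5-fold in WT and 3.41-fold in *fer* (adjusted p = 0.0171), a difference of -3.38 ± 0.47 (adjusted p = 0.00377). It did not pass with replicates 3 and 4 alone (-3.53, adjusted p = 0.204) or with limma-voom (adjusted p = 0.162).

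*NRT1.8* (AT4G21680), a transporter that takes nitrate out of the xylem, had 48.8, 26.5, 25.1 and 45.0 CPM in WT control, 258, 178, 200 and 212 in treated WT, 142, 148, 144 and 156 in *fer* control and 238, 350, 349 and 231 in treated *fer*. Untreated *fer* lay between the WT groups, and the treated groups overlapped. The difference was -1.56 ± 0.28 (adjusted p = 0.0367), with a response in *fer* of 1.98-fold (adjusted p = 0.0389), and it did not pass with replicates 1 and 2 alone (adjusted p = 0.596) or with replicates 3 and 4 alone (adjusted p = 0.329). *PGIP2* (AT5G06870), an inhibitor of fungal polygalacturonases, went from 3.18 ± 1.22 to 21.6 ± 1.38 CPM in WT and from 16.3 ± 4.99 to 23.2 ± 7.22 in *fer* (SD, n = 4), a difference of -2.25 ± 0.39 (adjusted p = 0.0233) that did not pass with replicates 3 and 4 alone (adjusted p = 0.174).

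AT1G59950, annotated as an NAD(P)-linked oxidoreductase, rested on 3, 4, 2 and 0 counts in WT control, with means of 0.500 and 6.09 CPM in WT and 19.3 and 27.0 in *fer*, and its difference of -3.19 ± 0.58 (adjusted p = 0.0367) moved from -1.70 with replicates 1 and 2 alone to -4.96 with replicates 3 and 4 alone. *RAP2.9* (AT4G06746), named for its AP2 domain, went from 53.5 ± 11.9 to 153 ± 3.69 CPM in WT and from 160 ± 16.8 to 222 ± 20.4 in *fer*, a difference of -1.05 ± 0.19 (adjusted p = 0.037). *CB5-C* (AT2G46650), a cytochrome b5 gene, went from 89.0 ± 14.1 to 198 ± 12.3 CPM in WT and from 242 ± 46.3 to 258 ± 24.8 in *fer*, also -1.05 ± 0.19 (adjusted p = 0.037). Neither passed with replicates 1 and 2 alone (adjusted p = 0.114 for *RAP2.9* and 0.0835 for *CB5-C*) or with replicates 3 and 4 alone (0.568 and 0.283). These last 3 genes and *NRT1.8*, *JAZ3* and *PGIP2* were the least stable of the 20. *RAP2.9* passed in 11, *CB5-C* in 12, AT1G59950 in 13 and *NRT1.8* in 14 of the alternatives run. Without WT control replicate 3 the 20 calls became 13, the lowest count when 1 library was left out.

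**Figure D4:**
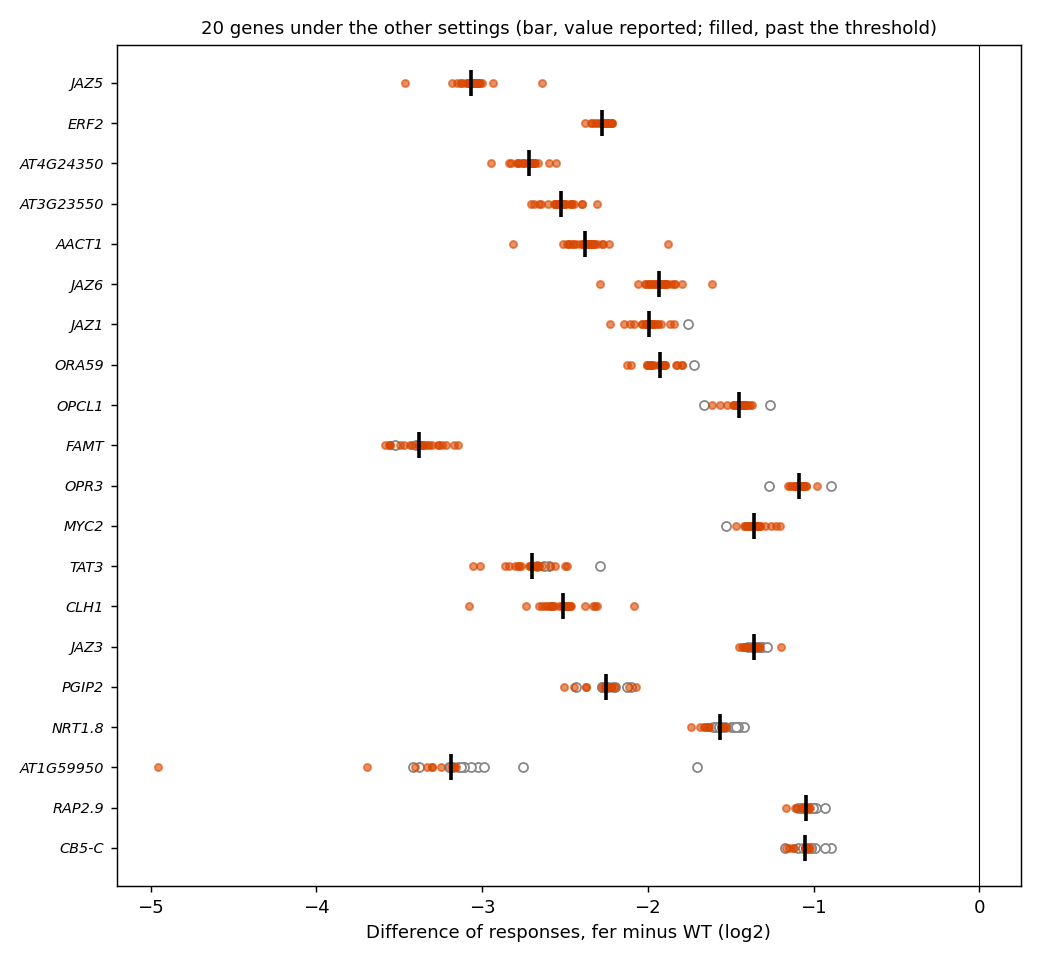
Difference of responses (log2) of the 20 genes as reported (black bar) and under the other settings, with filled points past the adjusted p threshold and open points not. No point reaches 0, and the widest spread is that of AT1G59950, from -4.96 to -1.70. The other settings reuse libraries of the fit that chose the genes.

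The levels behind these differences were compared library by library. Every treated *fer* library was above every *fer* control library in 11 of the 20 genes, an order found in 1.97% of the genes tested. The corresponding order in WT was found in 7.01% of the genes tested. Every *fer* control library was above every treated WT library in 7 of the 20 (12.8% of the genes tested), and every treated *fer* library was above every treated WT library in 16 of the 20 (16.8% of the genes tested). These orders use the same libraries as the test that chose the 20 genes and are a description.

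Since the difference of responses is a ratio of ratios, it was also set beside the gain in CPM, treated minus control group mean (± standard error, no test). The gain was larger in *fer* than in WT for 6 of the 20 genes. These genes were chosen on the log2 scale, and the share of all genes tested with a larger gain in *fer* was not counted. *FAMT* gained 282 ± 56.6 CPM in *fer* and 80.3 ± 13 in WT, and *TAT3* gained 196 ± 44.8 in *fer* and 27.8 ± 4.81 in WT. *JAZ5* gained 55.0 ± 10.1 in *fer* and 32.6 ± 1.85 in WT. The gains of *OPR3*, 98.1 ± 17.3 in *fer* and 95.7 ± 5.89 in WT, differed by less than their errors, as did those of AT1G59950 (7.76 ± 3.83 and 5.58 ± 1.23). For *CLH1* the gain in *fer* exceeded that in WT by 109 ± 106. At the other end, *ERF2* gained 64.0 ± 3.46 CPM in WT and changed by -12.5 ± 12.6 in *fer*, and *JAZ1* gained 1021 ± 71.1 in WT and 372 ± 215 in *fer*. On the log2 scale all 20 had the smaller response in *fer*, whereas on the linear scale the gain was smaller in *fer* for 14. For 4 of these 14 the gains differed by less than the standard error of the difference (AT4G24350, -44.1 ± 50.1; AT3G23550, -11.2 ± 20.1; *AACT1*, -21.8 ± 72.6; *NRT1.8*, -31.5 ± 37.9).

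**Figure D5:**
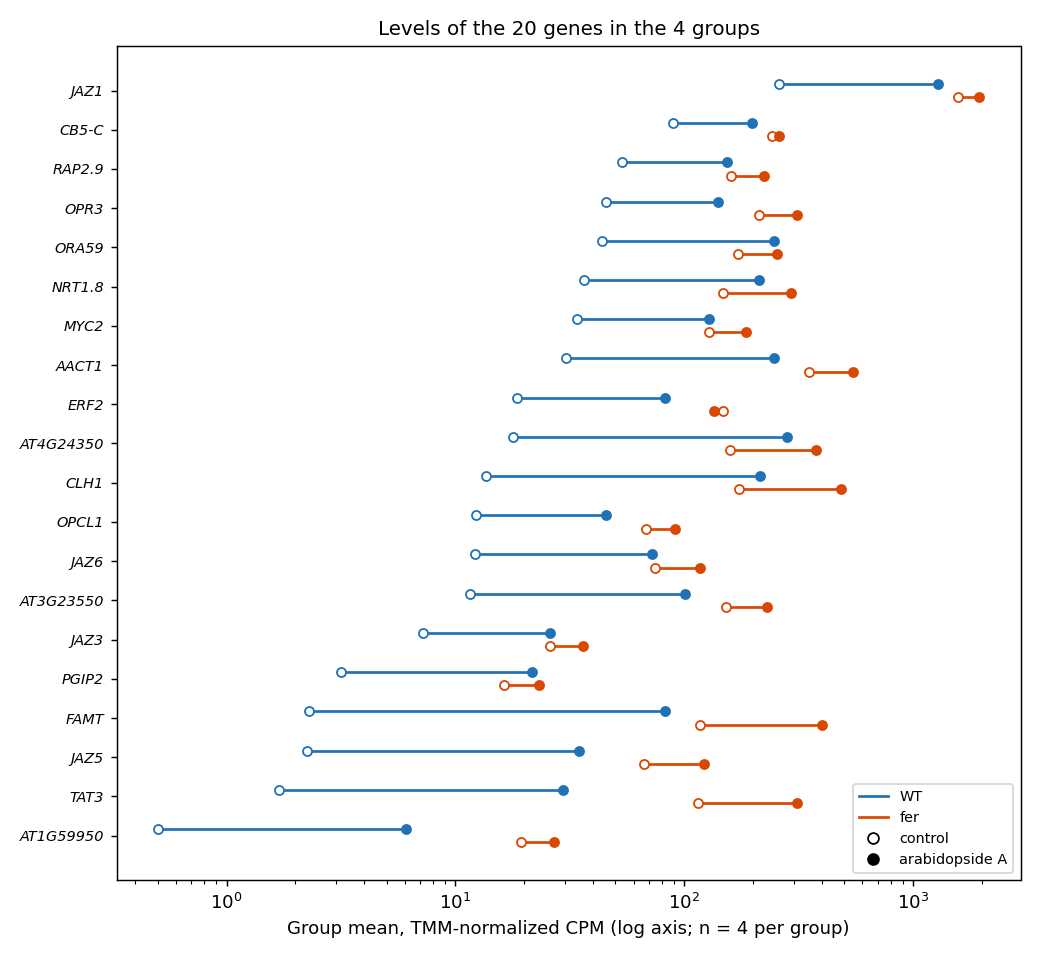
Group means in TMM-normalized CPM (log axis, n = 4 per group) of the 20 genes in WT (blue) and *fer* (orange), with an open circle for control and a filled circle for arabidopside A. The WT lines start lower and are longer for each gene, and the filled *fer* circle lies to the right of the filled WT circle in all 20. The genes were chosen by a test on these groups, so the order is a description.

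Among the genes with a positive difference of responses, *NRT1.5* (AT1G32450), which loads nitrate into the xylem, had the smallest p-value. It had 70.9, 69.8, 97.4 and 55.4 CPM in WT control, 18.5, 11.9, 21.7 and 23.3 in treated WT, 70.6, 67.0, 60.5 and 48.9 in *fer* control and 48.3, 43.3, 40.4 and 32.4 in treated *fer*. Treated WT was below every other library, and both control groups overlapped. The log2 response was -1.96 in WT and -0.59 in *fer* (adjusted p = 0.356), so that it fell less in *fer*, and the difference of 1.37 ± 0.28 did not pass (adjusted p = 0.0844). It passed with the replicate block (adjusted p = 0.00773) and was the 1 positive gene there and with DESeq2. The next 4 genes had adjusted p-values of 0.416 to 0.474. They were *UGT72E2* (AT5G66690), a glucosyltransferase of lignin precursors (1.03 ± 0.27), AT3G23090 (0.87 ± 0.24), the noncoding gene AT2G35738 (0.91 ± 0.25) and AT4G03820 (1.67 ± 0.46).

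In the remaining groups no member passed. The early wound and touch genes had a median difference of -0.61, with 14 of 16 negative, 4 raised in WT and 0 in *fer*. The median was -0.68 with replicates 1 and 2 alone, where 2 members passed, and -0.45 with replicates 3 and 4 alone. *MPK3* (AT3G45640), a mitogen-activated protein kinase gene, was at 44.9 ± 5.92 and 60.2 ± 4.72 CPM in WT and at 109 ± 11.5 and 86.2 ± 5.04 in *fer* (control and treated; SD, n = 4), a difference of -0.76 ± 0.16 (adjusted p = 0.119). *WRKY40* (AT1G80840), a repressor of defence genes, had -1.81 ± 0.43 (adjusted p = 0.286) and *STZ* (*ZAT10*, AT1G27730), a zinc finger repressor, -1.84 ± 0.52 (adjusted p = 0.577), and both passed with the replicate block (adjusted p = 0.00336 and 0.0169). AT1G76640 (*CML39*), a calmodulin-like gene, had -2.89 ± 0.75 (adjusted p = 0.444).

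The 18 genes of ER bodies, structures of the endoplasmic reticulum that store β-glucosidases, all had a negative difference, with a median of -0.47. The median was -0.33 with replicates 1 and 2 alone, where 1 member passed, and -0.65 with replicates 3 and 4 alone. Of the 18 genes, 11 were raised in WT and 2 in *fer*, *MEB2* and *GLL22*. *JR1* (*JAL35*, AT3G16470), a jacalin-like lectin gene, had -1.19 ± 0.37 (adjusted p = 0.732, or 0.00699 with the replicate block) and overlaps *JAL34* by 631 bp on the opposite strand. *JAL23* (AT2G39330), another jacalin-like lectin gene, had -1.66 ± 0.65 (adjusted p = 1). *NAI1* (AT2G22770), the bHLH factor required for ER bodies, went from 28.2 ± 2.64 to 74.4 ± 12.6 CPM in WT and from 45.8 ± 10.6 to 77.6 ± 18.8 in *fer*, a difference of -0.64 ± 0.26 (adjusted p = 1). AT1G54010 (*GLL23*), a lipase-like gene, had -1.07 ± 0.44 (adjusted p = 1, or 0.0255 with the replicate block).

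The indole glucosinolate genes, which make tryptophan-derived defence compounds, had a median of -0.70 (-0.28 with replicates 1 and 2 alone and -0.86 with replicates 3 and 4 alone), with 14 of 18 negative, 5 raised in WT and 1 in *fer*. *CYP91A2* (AT4G37430), a cytochrome P450 gene, was at 10.7 and 17.5 CPM in WT and at 59.0 and 40.9 in *fer* (control and treated means), a difference of -1.22 ± 0.29 (adjusted p = 0.245). *SUR1* (AT2G20610), the C-S lyase of the route, had -0.74 ± 0.19 (adjusted p = 0.353), and *UGT74B1* (AT1G24100), the glucosyltransferase that follows it, -0.79 ± 0.24 (adjusted p = 0.66). *SOT16* (AT1G74100), a sulfotransferase of the last step, had -0.86 ± 0.31 (adjusted p = 0.966, or 0.049 with the replicate block). The tryptophan synthesis genes had a median of -0.61 (-0.17 with replicates 1 and 2 alone and -0.84 with replicates 3 and 4 alone), with 7 of 8 negative and 0 raised in either genotype. The smallest p-values were those of *ASB1* (AT1G25220; -0.95 ± 0.53, adjusted p = 1) and *TSB2* (AT4G27070; -0.90 ± 0.54, adjusted p = 1).

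The ethylene and jasmonate output genes, defensins and chitinases among them, were not raised past the threshold in either genotype, although all 7 were higher in *fer* control than in WT control. Their median difference was -0.66 (-1.69 with replicates 1 and 2 alone and -0.40 with replicates 3 and 4 alone), with 5 of 7 negative and *LCR67* (*PDF1.1*; 1.09, adjusted p = 1) and *HCHIB* (0.92 ± 0.81, adjusted p = 1) positive. The defensin gene *PDF1.2* (AT5G44420) was at 0.369 ± 0.298 and 2.65 ± 1.84 CPM in WT and at 48.1 ± 9.51 and 63.2 ± 29.9 in *fer* (control and treated; SD, n = 4), a difference of -2.35 ± 0.83 (adjusted p = 0.966). Its near-identical copies *PDF1.2b* (-2.20 ± 0.82, adjusted p = 0.97) and *PDF1.2c* (-2.47 ± 0.99, adjusted p = 1) may share reads with it. The electrophile response genes, which answer reactive oxylipins such as OPDA, had a median of -0.13 (0.16 with replicates 1 and 2 alone and -0.52 with replicates 3 and 4 alone). Of the 13 genes, 9 were negative, 3 were raised in WT and 1, *CYP81D11*, was raised in *fer*. Of these, *CYP81D11* (AT3G28740), a cytochrome P450 gene, went from 1.3 ± 0.82 to 31.7 ± 6.81 CPM in WT and from 11.5 ± 9.5 to 50.8 ± 15.5 in *fer* (SD, n = 4), a difference of -2.50 ± 0.69 (adjusted p = 0.537). *GSTU4* (AT2G29460), a glutathione transferase gene, had -1.49 ± 0.64 (adjusted p = 1).

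Further genes named above overlap a gene on the opposite strand, so that their reads have the same limit. The overlap is 2138 bp for AT2G35738, 1820 bp for *CYP91A2*, 1579 bp for *HCHIB*, 695 bp for *ASB1*, 211 bp for *JAZ12*, 192 bp for *MPK3* and 71 bp or less for *JAZ10*, *WRKY40*, *NRT1.8*, *CYP81D11*, *NRT1.5*, AT3G22275 and *COI1*.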

How the data were processed

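QuantSeq libraries of 16 seedling samples were used, 4 per group, with groups taken from the labels. Reads of 50 bp were mapped by the authors with STAR (mismatch setting 0.6) on TAIR10. Whole-number counts per gene came from htseq-count in its intersection-nonempty mode and were deposited without normalization. The strand option and a test for the arabidopside A samples are not given in the sources used here. The table holds 32833 genes, 6850 of them without a count.

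Counts were scaled by TMM, filtered with edgeR's filterByExpr and fitted over all 16 libraries with 1 coefficient per group by the robust quasi-likelihood method (edgeR 4.0.16, R 4.3.3). The contrast was the response in *fer* minus that in WT, with Benjamini-Hochberg adjustment over 18132 genes and a threshold of 0.05. Standard errors are the log2 estimate over the square root of F. Alternatives were other scalings and filters, DESeq2 1.42.0, limma-voom (limma 3.58.1), replicate blocks, pairs of replicates, a thinned deep library and leaving out each library, 28 in all, and the linear CPM scale, chosen after seeing the data. Deviations of same-numbered *fer* control and treated libraries correlated in all 4 pairs (0.186 to 0.61, mean 0.384, other pairs -0.126). In WT the range was -0.0407 to 0.0112. The *fer* libraries split by replicate number on the first principal component in both treatments. Such a split can by itself make the deviations of same-numbered libraries correlate. The other pairs were pooled across the split, so whether same-numbered *fer* libraries are pairs was not tested. The results reported use no block, and the block within each genotype is given beside those it changes. The 24 pairs of libraries within groups differed by more than sampling noise (chi-square per gene at least 2.61). The value was 2.61 to 4.3 in WT pairs, 5.97 to 37.4 in *fer* control and 8.46 to 71.3 in treated *fer*. It also grows with depth: 71.3 was that of the deep replicate 2 with replicate 4. Treated *fer* pairs without replicate 2 gave 19.4 to 49. The fit uses 1 dispersion per gene for all groups.

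Named genes are all those past the threshold, the 5 with the smallest p and at least 5 CPM on the side with none, *FER*, and per group the 2 to 4 members with the smallest p. Other members named (nearest to 0, of opposite sign, or past the threshold only with the block) were chosen after their values were seen. Windows that reach into another gene are not shown. Members and lists were chosen with earlier results of these data known. Symbols came from TAIR10.1, which matched 32548 identifiers. The test was checked on simulated counts in which all groups shared 1 mean per gene, apart from the genes changed, and replicates were independent. The genes changed were drawn from those with a mean of at least 5 CPM, so recovery at lower levels was not checked. The test recovered 23 of 100 genes changed by 1 on the log2 scale and 86 of 100 changed by 2, with 4 false calls. DESeq2 recovered 36 and 91, with 19 false calls. The split of the *fer* replicates was not simulated.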

Additional observations from a re-analysis of the deposited data

Results flagged for a closer look

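The difference of responses between *fer* and WT passed the test itself for 20 genes: *JAZ5* (-3.07), *ERF2* (-2.28), AT4G24350 (-2.72), AT3G23550 (-2.53), *AACT1* (-2.38), *JAZ6* (-1.93), *JAZ1* (-1.99), *ORA59* (-1.93), *OPCL1* (-1.45), *FAMT* (-3.38), *OPR3* (-1.09), *MYC2* (-1.36), *TAT3* (-2.70), *CLH1* (-2.51), *JAZ3* (-1.36), *PGIP2* (-2.25), *NRT1.8* (-1.56), AT1G59950 (-3.19), *RAP2.9* (-1.05) and *CB5-C* (-1.05), all on the log2 scale and negative.

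In 4 of the 84 groups of 4 libraries examined, 1 library was set apart from the other 3, and chance sets apart about 1 in 20 such groups. *AACT1* was at 21.2 CPM in WT control replicate 3, with the next library at 32.4, and at 177 CPM in WT arabidopside A replicate 2, with the next at 262. *TAT3* was at 2.77 CPM in WT control replicate 1, with the next at 1.47. The total count of *fer* arabidopside A replicate 2 was 26358335, with the next at 6860427.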

How the results depend on the processing

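No gene of the 20 changed sign on the log2 scale under the alternatives run, and *JAZ5*, *ERF2*, AT4G24350, AT3G23550, *AACT1*, *JAZ6* and *CLH1* passed in each in which they were tested. The alternatives reuse libraries of the fit that chose the 20 genes, so the kept sign is a description. *JAZ5*, *FAMT*, *TAT3*, *PGIP2* and AT1G59950 were not tested under the stricter filter. The 20 calls became 51 with DESeq2 (50 negative and 1 positive), 16 with limma-voom (without *FAMT*, *TAT3*, *PGIP2* and AT1G59950), 14 under a minimum of 10 counts per library, 24 with replicates 1 and 2 alone (12 shared, 1 positive), 14 with replicates 3 and 4 alone (9 shared) and 13 to 22 when 1 library was left out, of which 0 to 1 were positive. The positive one was *NRT1.5* throughout, also without the filter (1 gene). The replicate block within genotype, which pairs same-numbered libraries of WT and of *fer*, gave 53 (52 negative, 1 positive), and a block shared by the groups gave 18 (16 shared). With DESeq2 8 JAZ, 4 biosynthesis, 4 turnover, 5 ERF, 3 wound output and 3 early wound genes passed. On the simulated counts DESeq2 made 19 false calls among 146, against 4 among 113 with the edgeR test reported here. The response in WT, 357 genes, became 584 with the block within genotype, 218 with replicates 3 and 4 alone and 210 to 437 without 1 library. The response in *fer*, 69 genes, became 45 with library totals only, 182 with DESeq2, 187 with the block, 439 with replicates 1 and 2 alone, 0 with replicates 3 and 4 alone and 10 to 179 without 1 library. The cause of these shifts was not tested. On the linear CPM scale, chosen after seeing the data, the sign turned for *JAZ5* (22.5), *FAMT* (202), *OPR3* (2.38), *TAT3* (168), *CLH1* (109) and AT1G59950 (2.18), as that scale takes differences in place of ratios. AT1G59950, with at most 4 counts per library in WT control, is limited by depth.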
